A study of Mus musculus with 2 samples.

Results

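Extraembryonic visceral endoderm cells (VE cells below) were selected on measured values from a droplet-based scRNA-Seq dataset of mouse chimeric embryos, as the cells in which *Apoa1*, *Ttr*, *Rbp4* and *Afp* together made up at least 2% of the spliced UMIs and the globin genes *Hba-x*, *Hbb-bh1* and *Hbb-y* less than 2%. A UMI stands for 1 captured RNA molecule. This rule gave 61 of 18233 cells, of which 57 came from the 9252 cells of the tdTom- library and 4 from the 8981 cells of the tdTom+ library. The study asked what loss of *Gata1*, the master regulator of red blood cell formation, does to cells of the embryo. Male mouse embryonic stem cells (ESCs) that carried an active tdTomato reporter and a 38 base-pair frameshift in exon 4 of *Gata1* were injected into wildtype C57BL/6 blastocysts. The injected cells descend from 1 ESC clone and are the tdTom+ (*Gata1*-) fraction, while the cells of the hosts are the tdTom- (wildtype) fraction. Whole chimeric embryos, 6 in all, were pooled, dissociated and sorted, and each fraction gave 1 library, with an age label of E8.5 for tdTom+ and E8.6 for tdTom-. No replicate library exists for either fraction, so no test was run, and every 95% interval below covers counting error only.

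The visceral endoderm is the outer epithelium of the early conceptus and later forms the endoderm layer of the yolk sac. Before the placenta and the liver work, it takes up maternal protein by endocytosis, digests it in lysosomes, and secretes lipoproteins and serum proteins such as alpha-fetoprotein and transthyretin. It arises from the primitive endoderm, a lineage that separates in the blastocyst before the epiblast forms the germ layers, and injected ESCs contribute mainly to the epiblast. Some of its descendants are also incorporated into the gut endoderm, the closest embryonic tissue.

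Spliced UMIs summed to 167940767 for tdTom+ and 157174026 for tdTom-, and the median cell held 17598 and 15996 of them. The libraries shared 18 cell barcodes, none of them that of a VE cell. Scrublet, run within each library, called 395 tdTom+ and 565 tdTom- cells doublets, and 0 of the 61 VE cells were among them. The row of the tdTomato transcript held 0 UMIs in both libraries, so the fraction of a cell rests on the sort alone. *Gata1* had 1129 UMIs in the tdTom+ and 4600 in the tdTom- cells outside the VE cells, a count that does not read the frameshift itself.

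The stretches upstream of *Afp*, *Apoa1*, *Apob* and *Rbp4* are shown because *Afp*, *Apoa1* and *Rbp4* chose the VE cells and *Apob* marks them, and because liver-type factors of the FOXA, HNF1, HNF4 and GATA families are known to act at such genes. The stretch of *Ttr*, the other rule gene, was not used here. Each stretch is the 250 bases before the start site in RefSeq (GRCm38.p6), written on the strand of the gene, with every match in capitals. The letters searched on both strands were TGTTTAC and TGTTTGC for FOXA, GTTAAT for HNF1, CAAAGTCCA and CAAAGGTCA for HNF4, and AGATAA for GATA.
Afp (chr5:90490464-90490713, plus strand): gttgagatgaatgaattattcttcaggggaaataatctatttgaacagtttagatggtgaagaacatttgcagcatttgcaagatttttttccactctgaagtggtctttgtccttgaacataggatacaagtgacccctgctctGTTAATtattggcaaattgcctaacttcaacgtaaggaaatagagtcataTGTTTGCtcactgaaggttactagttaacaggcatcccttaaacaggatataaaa
Apoa1 (chr9:46228380-46228629, plus strand): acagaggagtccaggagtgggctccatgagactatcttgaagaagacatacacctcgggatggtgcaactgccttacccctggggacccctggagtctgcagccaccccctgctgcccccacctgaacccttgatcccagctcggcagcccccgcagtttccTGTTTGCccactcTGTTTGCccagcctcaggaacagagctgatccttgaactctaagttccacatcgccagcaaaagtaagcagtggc
Apob (chr12:7977427-7977676, plus strand): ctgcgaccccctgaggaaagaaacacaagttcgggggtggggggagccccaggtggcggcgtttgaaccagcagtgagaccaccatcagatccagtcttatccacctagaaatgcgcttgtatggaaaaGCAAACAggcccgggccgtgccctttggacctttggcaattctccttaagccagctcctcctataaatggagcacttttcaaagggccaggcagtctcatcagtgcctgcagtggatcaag
Rbp4 (chr19:38125322-38125571, minus strand): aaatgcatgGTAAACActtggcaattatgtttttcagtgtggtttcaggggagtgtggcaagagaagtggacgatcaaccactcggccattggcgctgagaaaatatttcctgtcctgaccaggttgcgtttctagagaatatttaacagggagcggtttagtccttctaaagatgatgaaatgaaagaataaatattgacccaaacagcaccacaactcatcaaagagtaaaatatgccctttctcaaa

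The *Afp* stretch held TGTTTGC at bases -55 to -49 and GTTAAT at -105 to -100, counted from the start site. That of *Apoa1* held TGTTTGC at -88 to -82 and again at -75 to -69. The *Apob* stretch held TGTTTGC on the opposite strand at -121 to -115, and that of *Rbp4*, which has 2 start sites listed, TGTTTAC on the opposite strand at -241 to -235. Of 32851 stretches of the same length, 4.30% held TGTTTGC, 3.17% TGTTTAC, 6.43% GTTAAT, 0.384% CAAAGTCCA, 0.426% CAAAGGTCA and 9.99% AGATAA. These are matches of letters, and no binding was measured.

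The tdTom- VE cells had between 1160 and 74118 spliced UMIs, with a median of 23546, and between 723 and 6899 genes, with a median of 4583. In these 57 cells the share of the 4 genes ran from 2.04% over a median of 3.65% to 6.05%, and its rank correlation with depth over the cells was -0.00. *Apoa1*, the main protein of high density lipoprotein, ran from 360 over a median of 8543 to 16007 CPM (UMIs per 1000000 spliced UMIs of the cell). *Ttr*, the thyroxine and retinol carrier transthyretin, ran from 6797 over 14297 to 29763 CPM. *Rbp4*, the retinol-binding protein of plasma, ran from 4795 over 11565 to 21344 CPM, and *Afp*, alpha-fetoprotein, from 0 over 2192 to 7073 CPM. As these genes chose the cells, their levels are a description. *Apob*, the scaffold of secreted lipoproteins, was not in the rule and ran from 0 over 1721 to 4334 CPM, with at least 1 UMI in 55 of the 57 cells.

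**Figure D1:**
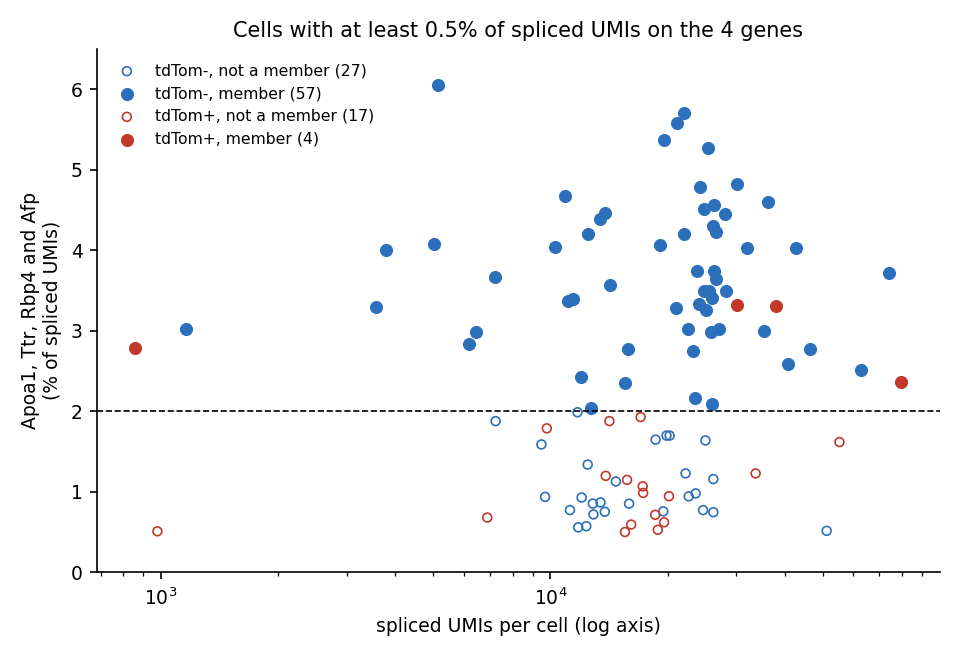
Share of spliced UMIs on *Apoa1*, *Ttr*, *Rbp4* and *Afp* (y axis, percent) against spliced UMIs of the cell (x axis, log scale) for every cell with a share of at least 0.5%. Filled points are VE cells (57 tdTom- in blue, 4 tdTom+ in red), open points other cells, and the dashed line is the 2% threshold. The VE cells lie between 2.04% and 6.05% at all depths. Other cells lie close under the line, the nearest at 1.99%, 1.93% and 1.88%, with no gap at the threshold.

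The cells just inside the threshold had shares of 2.04%, 2.09% and 2.17%, and those just outside 1.99%, 1.93% and 1.88%. A clustering of all cells that left out the 4 rule genes and the 3 globin genes placed 58 of the 61 VE cells (95.1%, 86.3 to 99.0) in 1 of 34 clusters, in which 58 of 69 cells (84.1%) were VE cells. In this cluster 12 of 12 markers of visceral endoderm kept outside the rule were at least 2-fold above all other cells, against 4 of 8 gut endoderm and 3 of 10 parietal endoderm markers and 5.62% of 16384 genes with at least 20 UMIs (10 CPM added to both sides). The markers included *Apob*, *Amn*, *Cubn*, *Lrp2*, *Hnf4a*, *Foxa3*, *Apoa4*, *Apom*, *Cited1*, *Rhox5* and *Dab2*. They were not left out of the clustering and could help to form the cluster, which was picked by the VE cells in it. The 12 of 12 is therefore a description and no independent check of the cell type. The other 3 VE cells lay in clusters with gut endoderm markers (2 cells, both tdTom-) or with low UMI counts (1 tdTom+ cell with 860 UMIs). *Alb*, which marks liver more than yolk sac, had 0 UMIs in the VE cells of either fraction.

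Markers of other cell types were summed over the VE cells and set beside cells with neural markers, which should lack them (2064 tdTom- cells). Of the 5 clusters of neural cells, 1 was led by *Epha5*, *Fgf8*, *Nkx1-2* and *Cdx1*, genes of the caudal end of the embryo, and without it 1576 tdTom- cells were left. The 12 markers outside the rule summed to 12098 CPM in the tdTom- VE cells (965 to 17259 per cell), 503 CPM in gut endoderm-like cells and 108 CPM in the neural cells. Erythroid markers summed to 950 CPM (210 to 11541 per cell) and to 885 CPM in the neural cells, but nearly all of this was globin, which the rule limited. The 4 erythroid markers other than globin summed to 4.69 CPM against 10.1 CPM in the neural cells, with *Klf1* and *Gata1* at 0. *Kdr*, *Cdh5*, *Pecam1* and *Emcn*, 4 of the 5 endothelial markers, were at 0. The summed neural markers reached 19.6 CPM against 777 CPM in the neural cells, which these same markers chose, so the higher level there follows from that choice. The 8 markers of mesenchyme and mesothelium summed to 45.4 CPM with *Tbx4* at 0. Parietal endoderm markers summed to 1301 CPM against 958 CPM in gut endoderm-like cells. Only 1 of these 10 markers, *Thbd*, was at 0, while *Sparc* had 855 CPM and *Col4a1* 245 CPM. Against the other tdTom- cells, 4 of the 10 were raised and 3 lowered by the calls defined below. The 8 markers of extraembryonic ectoderm summed to 95.4 CPM, against 20.8 CPM in gut endoderm-like and 13.1 CPM in neural cells, with *Elf5*, *Rhox9*, *Ascl2* and *Wnt7b* at 0 and 48, 46 and 27 UMIs of *Tfeb*, *Plac1* and *Rhox6*. Of genes known from the anterior or embryonic visceral endoderm, chosen after their values were seen, *Cer1* had 0 UMIs over the 57 cells, *Otx2* 1, *Lefty1* 2, *Hhex* 4, *Eomes* 10 and *Dkk1* 13. The median mitochondrial share was 3.76% in the tdTom- VE cells and 2.58% in gut endoderm-like cells.

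VE cells made up 0.616% of the tdTom- cells (57 of 9252, 0.467 to 0.797) and 0.0445% of the tdTom+ cells (4 of 8981, 0.0121 to 0.114). Of the VE cells 6.56% were thus tdTom+ (1.82 to 15.9). By comparison, 45.7% of the 779 gut endoderm-like cells (356 of them, 42.2 to 49.3) and 49.3% of all cells were tdTom+. The interval of the VE cells lay below both. A low tdTom+ count was not particular to the VE cells. The cluster with 8 of 8 extraembryonic ectoderm markers raised held 1 tdTom+ and 74 tdTom- cells, doublets left out. That with 10 of 10 parietal endoderm markers raised held 0 and 20. Lowering the threshold to 1% changed the count to 12 tdTom+ and 67 tdTom- cells, while a threshold of 5% left 0 and 5. Of the 18 cells with a share between 1% and 2%, 8 (44.4%, 21.5 to 69.2) were tdTom+, 7 lay in the cluster of the VE cells and 11 in clusters with gut endoderm markers.

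VE cells held 0.813% of the spliced UMIs of the tdTom- library, but 95.9% of its *Apoc3*, 94.2% of *Slc2a2*, 90.2% of *Cubn* and 89.5% of *Apob* UMIs, genes that the rule did not use. For the rule genes, where a high share follows from the choice of cells, the values were 94.1% for *Apoa1*, 90.3% for *Afp* and 77.0% for *Ttr*. The share of *Spink1*, a trypsin inhibitor, was 47.7%, and gut endoderm-like cells had this transcript at 748 CPM. In the tdTom+ library the 4 VE cells, with 0.0885% of the spliced UMIs, held 70.3% of the *Apoc3* and 47.4% of the *Apob* UMIs, and of the rule genes 65.6% of *Afp*, 61.8% of *Apoa1* and 30.1% of *Ttr*. By comparison, *Apoa1* had a UMI in 4.46% and *Ttr* in 4.70% of neural cells of the tdTom- library, and *Rbp4* in 13.6% (3.81%, 4.51% and 11.0% without the caudal cluster). In tdTom+ neural cells the shares were 3.12%, 1.74% and 15.3%, and how much of them is background was not tested. Every cell was then thinned to 5000 UMIs, which left out 3 of the 57 VE cells and 61 neural cells of the tdTom- library. In its neural cells the shares were then 1.55%, 1.20% and 4.84%. Of genes outside the rule, *Apob* was then found in 92.6% of VE cells, *Cubn* in 87.0% and *Hnf4a* in 29.6%, against 0.150%, 0.0999% and 0.0999% of neural cells.

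To describe the program of the VE cells, summed UMIs of the 57 tdTom- VE cells (1278350 UMIs) were compared with those of the other 9195 tdTom- cells. A gene is called raised or lowered here where its CPM differed at least 2-fold and the interval of the log2 ratio left out 0. Of 15283 genes with at least 20 UMIs, 11.8% were raised and 13.3% lowered, and the median log2 ratio over all of them was -0.17. Plasma carrier proteins were raised in 8 of 8 measured genes and apolipoproteins with the proteins of lipoprotein assembly in 12 of 12, with median log2 ratios of 7.40 and 7.52. The first list holds the rule genes *Afp*, *Ttr* and *Rbp4* and the second *Apoa1*, whose calls follow from the choice of cells, and without them 5 of 5 (median 6.57) and 11 of 11 genes (median 7.41) were raised. Endocytic receptors and lysosomal proteases were raised in 12 of 12 genes (median 4.23), coagulation factors and protease inhibitors in 12 of 13 (median 6.47) and nutrient transporters in 7 of 9 (median 6.77). Endoderm transcription factors were raised in 9 of 14 and lowered in 1, with a median of 2.47, and iron and metal handling was raised in 10 of 13 and lowered in 2 (median 2.20). Lists with a mixed picture were retinoid handling, with 4 raised and 2 lowered of 9 (median 0.72), or 2 and 2 of 7 (median 0.04) without the rule genes *Rbp4* and *Ttr*, and signals and antagonists, with 2 raised and 1 lowered of 12 (median 0.17). Sterol synthesis went the other way, with 1 raised and 6 lowered of 13 and a median of -0.89. Imprinted, X-linked and Y-linked genes had 4 raised (*Rhox5*, *H19*, *Cdkn1c* and *Meg3*) and 1 lowered (*Grb10*) of 14. Of the marker lists, gut endoderm had 5 raised and 1 lowered of 8, parietal endoderm 4 and 3 of 10, and extraembryonic ectoderm 2 and 2 of 8. No marker was raised among 7 erythroid (7 lowered, of which 3 are the globin genes that the rule limited), 5 endothelial (4 lowered), 8 mesenchymal (8 lowered) and 10 neural ones (8 lowered).

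**Figure D2:**
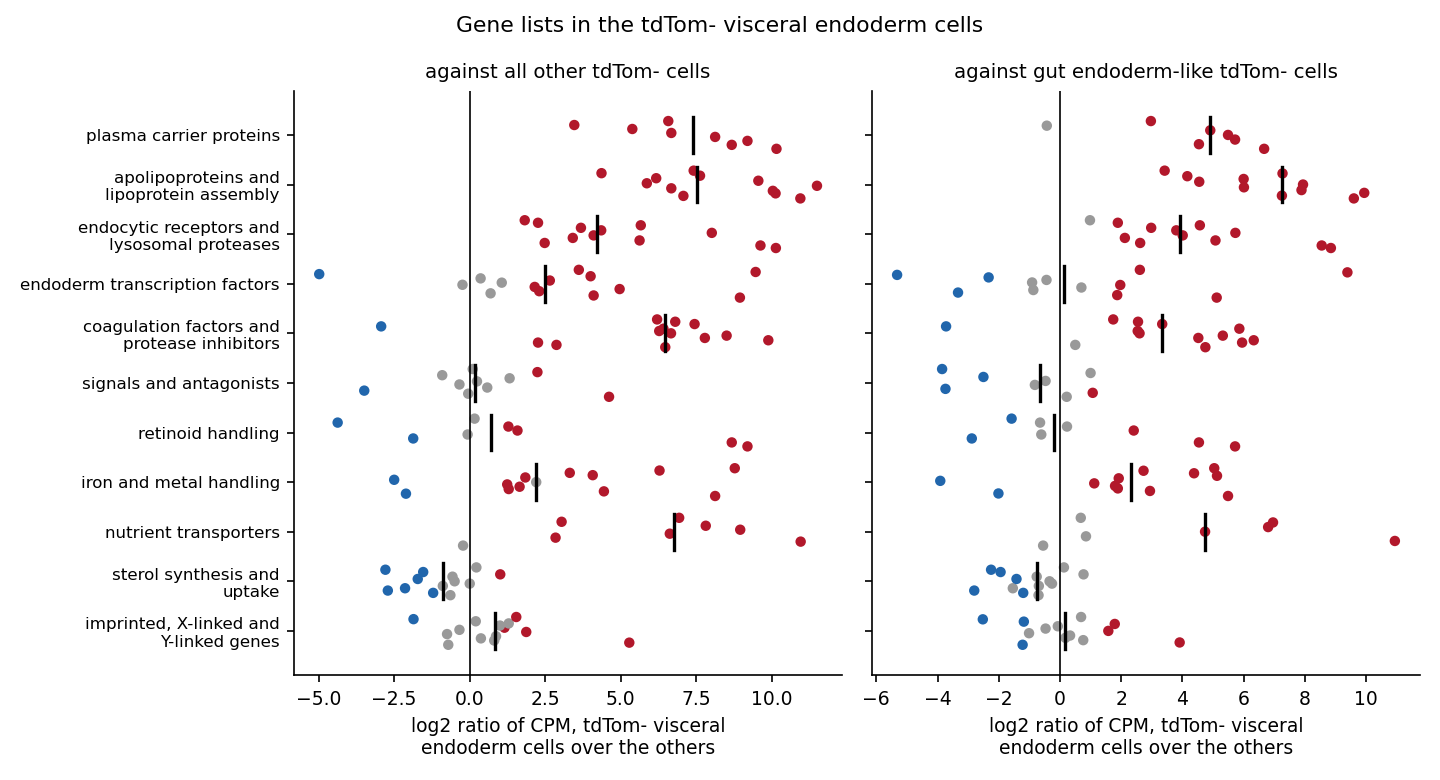
Log2 ratio of CPM in tdTom- VE cells over the other tdTom- cells (left) and over gut endoderm-like tdTom- cells (right), where each point is a gene with at least 20 UMIs, red if raised, blue if lowered and grey otherwise, and black bars are the medians of the lists, rule genes included. Carriers, apolipoproteins, endocytic and coagulation genes lie to the right in both panels (medians of 7.40, 7.52, 4.23 and 6.47 on the left), and sterol synthesis lies to the left (-0.89 and -0.76).

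Among lipid carriers, *Apoc3*, an inhibitor of lipoprotein lipase, had 129 CPM in VE cells and 0.0449 CPM in the other cells, a log2 ratio of 11.49 (10.41 to 12.83). *Apoa4*, a lipoprotein component of gut and yolk sac, had 514 against 0.462 CPM (10.12) and *Apom*, the carrier of sphingosine 1-phosphate, 3937 against 5.27 CPM (9.55). The log2 ratio of *Apob* itself was 10.03 (9.84 to 10.22). *Mttp*, which loads lipid onto nascent lipoproteins, had 237 against 3.28 CPM (6.17), and *Apoe* 184 against 3.16 CPM (5.86). *Apoc2*, the activator of lipoprotein lipase, had 1 UMI in VE cells. The neighbours *Apoa1*, *Apoc3*, *Apoa4* and *Apoa5* lie on chromosome 9, and *Apoa5*, named after its values were seen, had 25.8 against 0.661 CPM (5.29).

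For carriers of plasma, the log2 ratio was 10.15 for *Afp*, 9.19 for *Rbp4* and 8.67 for *Ttr*, all of the rule, and 8.12 (7.70 to 8.56) for transferrin (*Trf*), at 118 against 0.423 CPM. *Alb* lies beside *Afp* on chromosome 5, at 90460897 to 90476602 (*Afp*: 90490737 to 90508907). *Alb* was not detected with 0 UMIs, while *Afp* had 2990. *Cp*, the copper carrier ceruloplasmin, had 0 UMIs as well.

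In the uptake machinery, cubilin (*Cubn*) and amnionless (*Amn*), which together form the receptor for many plasma proteins, had 648 against 0.577 CPM (log2 ratio of 10.13) and 1446 against 1.83 CPM (9.62). *Lrp2*, the megalin receptor that works beside them, had 117 against 20.9 CPM (2.48), and other epithelia of the embryo are known to use it too. *Dab2*, an adaptor of endocytosis, had 913 against 18.5 CPM (5.62). The cathepsins *Ctsl* with 5768 against 282 CPM (4.35) and *Ctsh* with 1751 against 6.79 CPM (8.01) digest protein in lysosomes, as does legumain (*Lgmn*) with 1195 against 23.6 CPM (5.66). *Folr1*, a folate receptor named after its values were seen, had 663 against 3.97 CPM (7.38).

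Coagulation genes with large ratios were the fibrinogen chains *Fga* (42.2 against 0.0449 CPM, 9.88), *Fgg* (217 against 0.597) and *Fgb* (549 against 2.50, 7.78), which stand side by side on chromosome 3, and prothrombin (*F2*) with 51.6 against 0.584 CPM (6.47). *Spink1* had 4393 against 39.5 CPM (6.80). *Serpinf1* was the lowered gene of this list, with 1 UMI or 0.782 CPM against 5.97 CPM, where the log2 ratio was -2.93 (-8.24 to -0.45).

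Among transcription factors, *Creb3l3*, a regulator of lipid genes in liver and gut, had 117 against 0.167 CPM (9.46) and *Hnf4a*, the liver and yolk sac nuclear receptor, 85.3 against 0.173 CPM (8.94). *Foxa3* (4.96) was raised as well, along with *Gata4*, *Foxa2* and *Sox17* (2.15 to 2.65). The log2 ratio of *Gata6* was -0.24 (-0.70 to 0.18), at 35.2 against 41.5 CPM, and heart and other mesoderm are known to express it. *Otx2*, a factor of forebrain and anterior visceral endoderm, was lowered on 1 UMI (-4.98, -10.28 to -2.50). Of the secreted signals, *Ihh*, which the yolk sac endoderm sends to the blood islands, was raised with 46.2 against 1.89 CPM (4.61), and *Bmp4* was lowered with 3.91 against 44.0 CPM (-3.49). *Bmp2* and *Vegfa* had 17.2 against 17.8 CPM and 29.7 against 19.9 CPM and passed neither call.

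Among nutrient transporters, *Slc2a2*, a glucose carrier of liver and gut, had 343 against 0.173 CPM (10.95), whereas *Slc2a1*, the carrier used by most embryonic cells, had 474 against 554 CPM (-0.22). The amino acid carriers *Slc7a9* (8.95) and *Slc7a7* (6.62) and the sulfate carrier *Slc13a4* (7.81) were raised. For metals, the zinc carriers *Slc39a5* (8.77) and *Slc39a4* (6.28), the iron exporter ferroportin (*Slc40a1*, 4.44) and the metallothioneins *Mt1* (4.07) and *Mt2* (3.31) were raised. *Fth1* and *Ftl1*, the ferritin chains that store iron, had 11056 against 3524 CPM (1.65) and 8477 against 3595 CPM (1.24). *Tfrc*, the receptor by which most cells take up transferrin, was lowered at 23.5 CPM in VE cells (-2.11), and the ferroxidase *Heph* was lowered on 1 UMI (-2.50, -7.81 to -0.02).

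Of the retinoid genes outside the rule, *Rdh10* (1.58) and *Dhrs3* (1.28), which interconvert retinol and retinal, were raised. *Stra6*, the cellular receptor for Rbp4, and *Aldh1a2*, the enzyme that makes retinoic acid in the embryo, had 0 UMIs in VE cells, so they were at least 3.67-fold and at least 20.7-fold lower with a floor of 3 UMIs over the group. In sterol synthesis, *Sqle* (7.82 against 51.1 CPM, -2.71), *Cyp51* (14.1 against 46.4, -1.72) and *Hmgcs1* (28.9 against 67.1, -1.21) were lowered, as were *Insig1* (-2.79, -5.07 to -1.24, 3 UMIs) and *Idi1* (-2.14, -5.18 to -0.28, 2 UMIs).

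Outside the lists, genes with the highest log2 ratios included *Smlr1* (10.69), *Fabp2* (10.30), *Spp2* (9.81), *Lgals2* (9.74), *Mbl2* (9.72), *S100g* (9.37), *Pdzk1* (9.21), *Ifi27l2b* (9.13) and *Car7* (9.08). *Fabp2*, which binds fatty acids in enterocytes, had 72.8 against 0.0577 CPM with a UMI in 42 of 57 VE cells. *S100g*, a calcium-binding protein of absorbing epithelia, had 2150 against 3.24 CPM in 55 of 57 cells. *Mbl2*, a mannose-binding lectin of serum, had 70.4 against 0.0834 CPM. The lowest ratios belonged to the muscle genes *Myl4* (-6.68), *Tnnt2* (-6.62), *Ttn* (-6.12) and *Acta2* (-6.06) and to *Alas2* (-6.10), the erythroid enzyme of haem synthesis. They rest on 1 to 6 UMIs in VE cells, and the intervals reach from -7.51 to -4.94 for *Acta2* (6 UMIs) and from -11.40 to -3.62 for *Alas2* (1 UMI).

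Gut endoderm is the nearest embryonic tissue, so VE cells were next set against 423 gut endoderm-like cells of the same library (5714783 UMIs), which came from the 2 clusters with at least 5 of 8 gut markers raised that were not led by *T* or *Noto*, genes of the notochord. A cluster of 87 cells with 6 of 8 gut markers raised was led by these genes and was left out. Of 10339 genes, 10.9% were raised and 22.6% lowered in VE cells, and the median log2 ratio was -0.34. Apolipoproteins were raised in 11 of 11 genes (median 7.25), endocytic genes in 11 of 12 (3.91), coagulation genes in 11 of 13 with 1 lowered (3.34) and plasma carriers in 6 of 7 (4.91), or without the rule genes 10 of 10 apolipoproteins (6.63) and 3 of 4 carriers (3.94). Nutrient transporters were raised in 4 of 7 and iron and metal handling in 10 of 12 with 2 lowered. The transcription factors had 5 raised and 3 lowered of 12 and a median of 0.13. *Creb3l3* (117 against 0.175 CPM, 9.39) and *Hnf4a* (85.3 against 2.45, 5.12) were raised, but *Foxa1* (6.26 against 62.8, -3.33), *Hhex* (-2.33) and, on 1 UMI, *Otx2* (-5.32, -10.63 to -2.82) were lowered. *Foxa2* with 36.8 against 67.4 CPM (-0.87) and *Sox17* with 67.3 against 91.3 CPM (-0.44) passed neither call. Signals had 1 gene raised and 3 lowered of 8, retinoid genes 3 and 2 of 8 (1 and 2 of 6 without the rule genes), sterol genes 0 and 5 of 13, and imprinted, X-linked and Y-linked genes 3 and 3 of 13. The 8 gut endoderm markers had 0 raised and 5 lowered. These markers, which include *Foxa1*, *Foxa2*, *Sox17*, *Shh* and *Epcam*, chose the gut endoderm-like clusters. Their lower values in VE cells follow in part from that choice and are given as a description. *Shh*, a signal of the gut tube, had 0 UMIs in VE cells against 48.6 CPM, and the epithelial adhesion gene *Epcam* had 379 against 1018 CPM (-1.43).

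Genes with the highest ratios over gut endoderm-like cells included *Slc7a8* (9.02), *Smlr1* (8.83), *Aqp8* (8.52), *Fxyd2* (8.25), *Nostrin* (7.85), *Npl* (7.85), *Cldn2* (7.62), *Hsd17b2* (6.85) and *Car7* (6.60). *Cldn2*, a claudin of leaky epithelia, had 138 against 0.700 CPM, and *Fxyd2*, a subunit of the sodium pump, 373 against 1.22 CPM. The lowest belonged to *Nkx2-3* (-5.96), *Cxcl12* (-5.95), *Nnat* (-5.89), *Pcdh7* (-5.89), *Cnksr2* (-5.86), *Akap5* (-5.69), *Pyy* (-5.56), *Bok* (-5.53), *Tgfb2* (-5.52) and *Tbx1* (-5.43). Except for *Pyy* with 6 UMIs, each of them had 1 or 2 UMIs in VE cells, and the interval of *Tbx1* ran from -10.74 to -2.94. *Pyy*, a gut hormone, had 4.69 against 222 CPM, and *Nkx2-3*, a factor of gut and pharynx, 1.56 against 97.5 CPM. *Rhox5*, an X-linked homeobox gene of extraembryonic tissue, had 894 CPM in VE cells and 59.3 CPM in tdTom- gut endoderm-like cells (3.91). Its UMIs were found in 51 of 57 tdTom- VE cells (89.5%), in 62 of 423 tdTom- gut endoderm-like cells (14.7%) and in 6 of 356 tdTom+ ones (1.69%), with 1.21% of tdTom- neural cells as the background. After thinning these were 88.9%, 11.6%, 0.575% and 0.349%.

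Unspliced molecules, which the rule did not read, are often taken as newly made RNA. The study names introns kept in processed RNA as another source, and the source was not tested here. Over all genes unspliced molecules made up 9.12% of the UMIs of tdTom- VE cells, 15.7% of those of gut endoderm-like cells and 13.5% of those of the other cells. Among 14267 genes with at least 20 unspliced UMIs, 8.41% were raised and 7.05% lowered in VE cells against the other cells. Unspliced *Apob* had a log2 ratio of 11.33 (10.62 to 12.13), *Cubn* 11.15 (10.78 to 11.55) and *Hnf4a* 8.85. Of the rule genes, *Apoa1* had 11.61, *Afp* 10.20 and *Ttr* 9.18. Spliced UMIs of these 3 genes chose the cells, so their unspliced ratios are not independent of that choice. Endocytic genes were raised in 11 of 11 measured genes, plasma carriers in 5 of 6 and apolipoproteins in 5 of 6, or 2 of 3 and 4 of 5 without the rule genes. The other lists had 5 of 7 nutrient transporters, 5 of 11 iron and metal genes, 4 of 10 transcription factors, 3 of 8 retinoid genes (1 of 6 without the rule genes), 2 of 6 coagulation genes and 1 of 7 signals raised, and among them 1 metal gene was lowered. Sterol genes had 0 raised and 1 lowered of 12.

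The unspliced share differed widely between genes. It was 0.555% for *Ttr*, 0.196% for *Rbp4*, 0.990% for *Apoa1* and 2.83% for *Afp* in VE cells, but 9.36% for *Apob* (8.24 to 10.6), 29.0% for *Dab2* (26.8 to 31.3) and 47.9% for *Cubn* (45.4 to 50.3). For *Dab2*, *Lrp2* and *Mttp* it was lower in VE cells than in the other cells (29.0% against 43.9%, 32.9% against 51.1% and 8.46% against 33.0%), with intervals that did not overlap. Those of *Ttr*, *Apoa1* and *Cubn* overlapped between the groups. *Gata6* had 26.2% (15.8 to 39.1) against 15.8%. *Slc2a2* was lower as well (6.41% against 30.8%), as was *Rbp4* (0.196% against 0.549%). The part that the lower share over all genes has in these values was not tested.

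**Figure D3:**
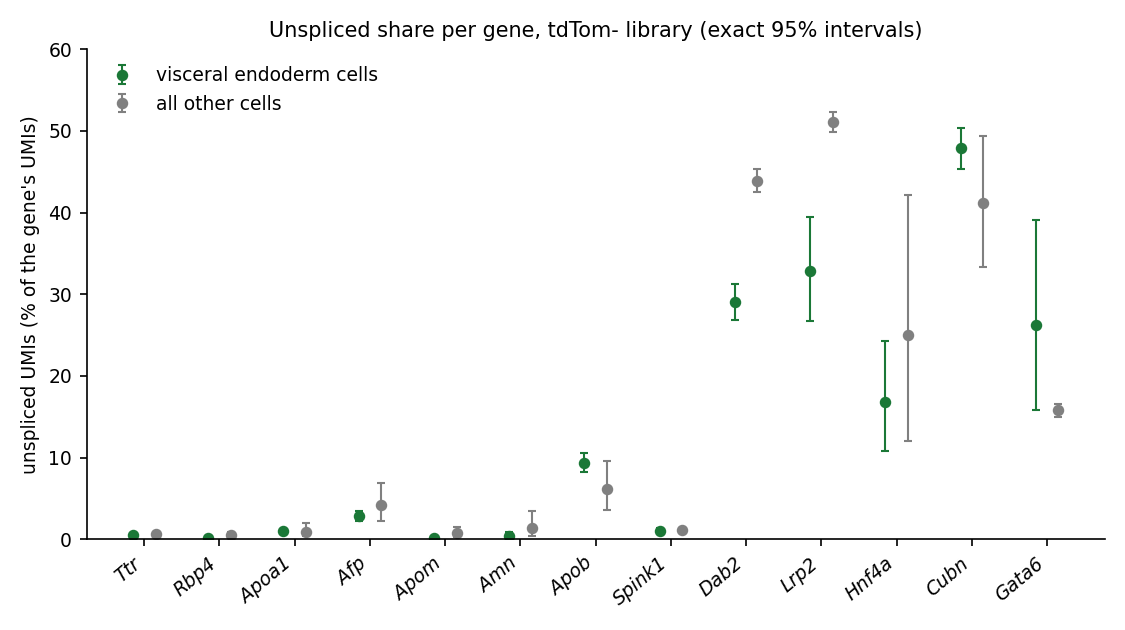
Unspliced UMIs as percent of all UMIs of a gene (y axis) in tdTom- VE cells (green) and all other tdTom- cells (grey), with exact 95% intervals. *Ttr*, *Rbp4*, *Apoa1* and *Apom* lie near 0 in both groups, *Cubn* is at 47.9% in VE cells, and *Dab2* and *Lrp2* are lower in VE cells than in the others.

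Clustering the 61 cells without the rule and globin genes gave 2 groups, of 43 cells (40 tdTom-, 3 tdTom+) and 18 cells (17 tdTom-, 1 tdTom+). Their medians of spliced UMIs were 24854 and 17311, those of the rule share 3.65% and 3.39%, and those of the unspliced share 7.90% and 11.0%. The genes that led each group made the groups and are given as a description. In the larger group the leading genes were *Aqp8*, *Mbl2*, *Erich4*, *Fabp1*, *Aqp3*, *Lrp2*, *Lcp1*, *Cgref1*, *Hist1h2bc* and *Slc2a2*. *Aqp8*, a water channel, had 254 CPM there and 37.3 CPM in the other group, with a UMI in 35 of 43 and 5 of 18 cells. *Slc2a2* had 424 against 117 CPM (41 of 43 and 8 of 18 cells) and *Aqp3*, a channel for water and glycerol, 189 against 45.3 CPM (40 of 43 and 6 of 18 cells). *Mt1*, *Apoa2* and *Apoa4* had log2 ratios between 1.41 and 1.62 in the same direction.

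Genes that led the smaller group included *Sox4*, *Crabp1*, *Tmsb10*, *Pclaf*, *Jun*, *Marcksl1*, *Cdkn1c*, *Grb10* and *Ttc3*. *Sox4*, a factor of progenitor cells, had 291 CPM against 4.75 CPM in the larger group, with a UMI in 13 of 18 and 5 of 43 cells. *Cdkn1c*, an imprinted inhibitor of the cell cycle, had 2498 against 434 CPM in 17 of 18 and 39 of 43 cells. *Crabp1* had 331 against 14.3 CPM, but 1 cell with 62780 spliced UMIs held 115 of its 124 UMIs in the group, and without this cell the level was 28.8 CPM. *Foxa2* and *Sox17*, which gut endoderm also expresses, had log2 ratios of 1.49 and 1.29 towards the smaller group, and *Spink1* one of 1.16 (7253 against 3254 CPM). The smaller group holds both VE cells that lay in gut endoderm clusters, and without them the ratios were 1.10 for *Foxa2*, 0.71 (-0.04 to 1.43) for *Sox17*, 1.20 for *Spink1*, 5.70 for *Sox4* and 2.53 for *Cdkn1c*. *Apela*, a peptide hormone that gut endoderm-like cells had at 450 CPM, had 40 UMIs in 8 of 18 cells and 1 UMI in the larger group. Of the rule genes, *Apoa1* (5720 against 9893 CPM) and *Afp* (1602 against 2581 CPM) were lower in the smaller group, as was *Rbp4* (9585 against 11897 CPM), while *Ttr* was at 14970 against 12828 CPM. *Apob*, outside the rule, was at 1698 against 1733 CPM. *Rhox5* was at 568 against 1022 CPM, with a UMI in 11 of 18 and 43 of 43 cells. The 2 cells that lay in gut endoderm clusters had no *Afp* or *Rhox5* UMI, and *Apob* at 64.3 and 180 CPM. At a higher resolution the 61 cells fell into 33, 17 and 11 cells, and the group of 17, with 0 tdTom+ cells, again had *Sox4* and *Tmsb10* among its leading genes, and *Crabp1* through the same cell.

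**Figure D4:**
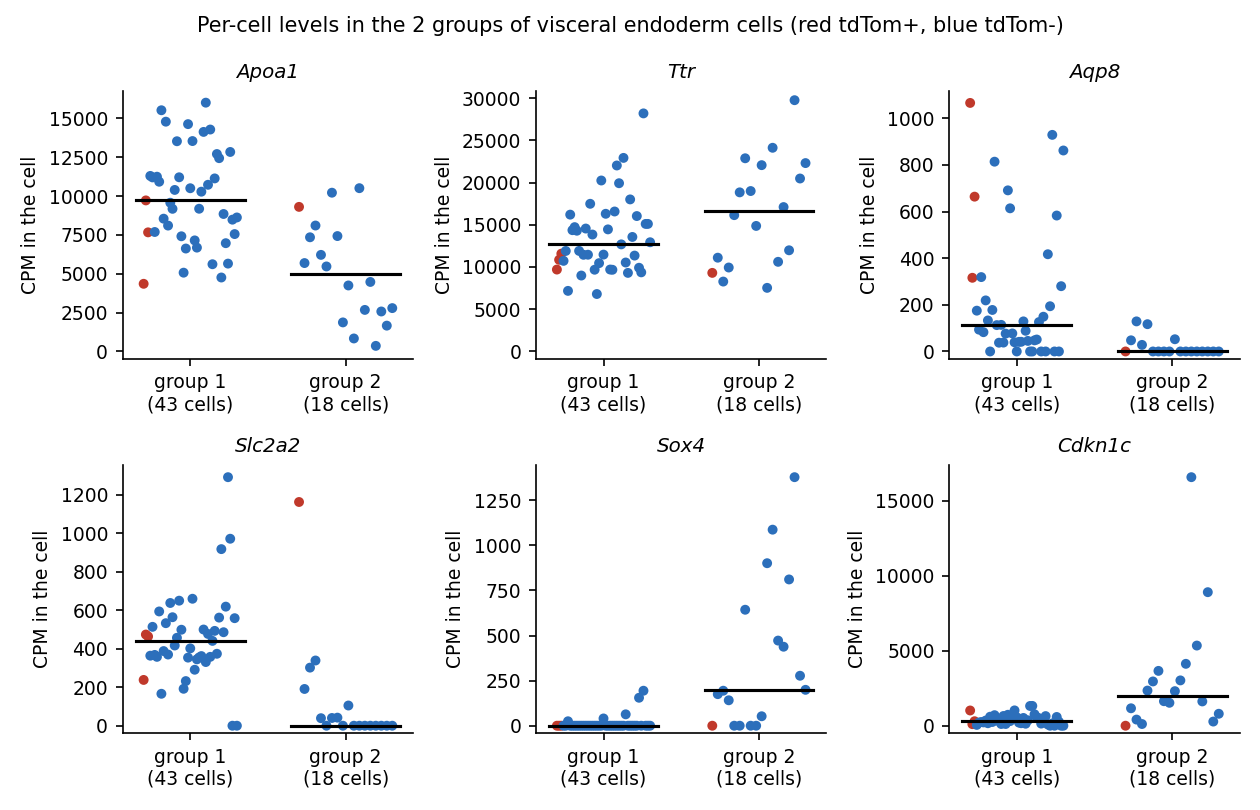
CPM per cell (y axes, linear) of 6 genes in the 2 groups of VE cells, group 1 with 43 and group 2 with 18 cells, each point a cell (blue tdTom-, red tdTom+) and black bars the medians. *Slc2a2* and *Aqp8* are higher in group 1 (424 and 254 CPM summed), *Sox4* and *Cdkn1c* in group 2 (291 and 2498 CPM summed), and *Ttr* overlaps between the groups.

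Finally, the 4 tdTom+ VE cells were compared with the 57 tdTom- VE cells. They had 79724, 37972, 30143 and 860 spliced UMIs and rule shares of 2.37%, 3.31%, 3.32% and 2.79%, so the first of them held most of the 148699 UMIs. Only 3 of the 8981 tdTom+ cells had as many UMIs as this cell, itself included. The larger of the 2 groups above held 3 of the tdTom+ and 40 of the tdTom- VE cells. The smaller held 1, the cell with 860 UMIs, and 17. The fractions were not compared within a group. By sum, *Afp* was at 2192 CPM in the 4 tdTom+ and 2339 CPM in the 57 tdTom- cells, *Apob* 1506 and 1749, *Ttr* 10370 and 13743, *Rbp4* 9052 and 11549, and *Apoa1* 6422 and 9072 CPM. Markers outside the rule summed to 12273 CPM against 12098 CPM. Of 6168 genes with at least 20 UMIs, 1.61% were raised (99) and 2.09% lowered (129) in tdTom+ VE cells. The mean over cells of each cell's CPM gave 354 and 1396, called by the 2-fold difference alone, without an interval. Plasma carriers, transcription factors, signals, iron and metal genes, nutrient transporters and sterol genes had 0 calls in either direction. With 6 to 11 measured genes in each of these lists, 0 calls is near the shares over all genes and does not show that the lists were unchanged. Apolipoproteins had 2 raised and 1 lowered of 11 genes, and the other functional lists had at most 2 calls in a direction.

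Lipid genes on this short list were *Fabp1*, a fatty acid-binding protein, with 558 against 105 CPM (2.41, 2.00 to 2.82), *Apoa2* with 1143 against 559 CPM (1.03) and *Apoc1* with 53.8 against 203 CPM (-1.91), beside *Lrp2* with 37 and 149 UMIs (1.09) and *Fga* (-2.65, -7.98 to -0.11, on 1 UMI). The highest ratios outside the lists belonged to *Fabp3* (3.91), *Hist2h2ac* (2.94), *Aqp8* (2.62), *Klf5* (2.32) and *Slc6a8* (2.10). For *Aqp8* the 4 cells had 85, 12, 20 and 0 UMIs, and for *Fabp1* 56, 6, 21 and 0, so the deepest cell held most of each. Without it the log2 ratios were 1.85 for *Aqp8* and 1.90 for *Fabp1*, while *Apoa2* (0.54, with 56 of 170 UMIs outside that cell), *Lrp2* (0.99) and *Slc6a8* (1.34, -1.05 to 3.07, on 3 UMIs) were no longer called. The deepest cell held every *Fabp3* and *Klf5* UMI of the tdTom+ VE cells. Without it *Fga*, and of the genes with the lowest ratios *Twistnb* (-2.09) and *Vps37a* (-1.94), were no longer called either, with intervals that held 0, and *Cenpv* and *Zfpm1* were at 0 UMIs. The lowest ratios belonged to *Cenpv* (-3.37), *Hba-x* (-3.28), *Twistnb* (-3.20), *Vps37a* (-3.05) and *Zfpm1* (-3.03), with 1 UMI each in tdTom+ VE cells except for *Hba-x* with 8, and the interval of *Zfpm1* ran from -8.35 to -0.50. *Hba-x*, an embryonic globin, stood at 53.8 CPM (tdTom+) and 521 CPM (tdTom-) in VE cells, close to the 49.2 and 485 CPM of neural cells of the same libraries. Its log2 ratio was 0.01 by the mean over cells, in which the cell with 860 spliced UMIs counts as much as the others. By depth the 4 cells had 3, 3, 0 and 2 *Hba-x* UMIs. All 3 erythroid markers with enough UMIs, the globin genes that the rule limited, were lowered (without the deepest cell *Hbb-bh1* was not called, at -0.68 with -1.64 to 0.14), and the summed markers were at 208 and 950 CPM in VE cells and at 156 and 885 CPM in neural cells. The part of the library in these values was not tested. Without the deepest tdTom+ cell the lowered genes were 76 in place of 129, of which 28 were shared, and the raised genes 112 in place of 99, with 37 shared. *Gata1* had 1 UMI in tdTom+ and none in tdTom- VE cells, where 0 of 57 cells allows a share of cells with a UMI of up to 5.26%, which is no limit on cells that express the gene.

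Genes that differ between the libraries in other cell types were then read in the VE cells. *Xist*, *Cdkn1c*, *Phlda2*, *Grb10*, *Impact* and *Erdr1* were chosen after the data were seen, from the genes with the largest ratios between tdTom+ and tdTom- neural cells, and the Y-linked genes and *Rhox5* were added to them. *Xist*, the RNA of X inactivation, marks female cells, while the injected line is male. Neural cells had 5.80 CPM of it if tdTom+ and 316 CPM if tdTom-, and gut endoderm-like cells 1.66 and 399 CPM. The corresponding levels of VE cells were 74.0 CPM (36.9 to 132) and 171 CPM (149 to 195), or 159 CPM for tdTom+ without the deepest cell, where the log2 ratio of -0.10 (-1.12 to 0.77) was not called. The 4 tdTom+ VE cells had 0, 11, 0 and 0 *Xist* UMIs, and 4, 0, 2 and 0 UMIs of the Y-linked *Ddx3y* and *Eif2s3y* together. Cells with 3 or more UMIs of *Xist* were 48 of all 8981 tdTom+ cells (0.534%), 1 of 4 tdTom+ VE cells, 13 of 57 tdTom- VE cells (22.8%, 12.7 to 35.8) and 45.9% of all tdTom- cells. A Y-linked UMI was present in 34 of 57 tdTom- VE cells (59.6%, 45.8 to 72.4) and in 42.3% of all tdTom- cells.

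**Figure D5:**
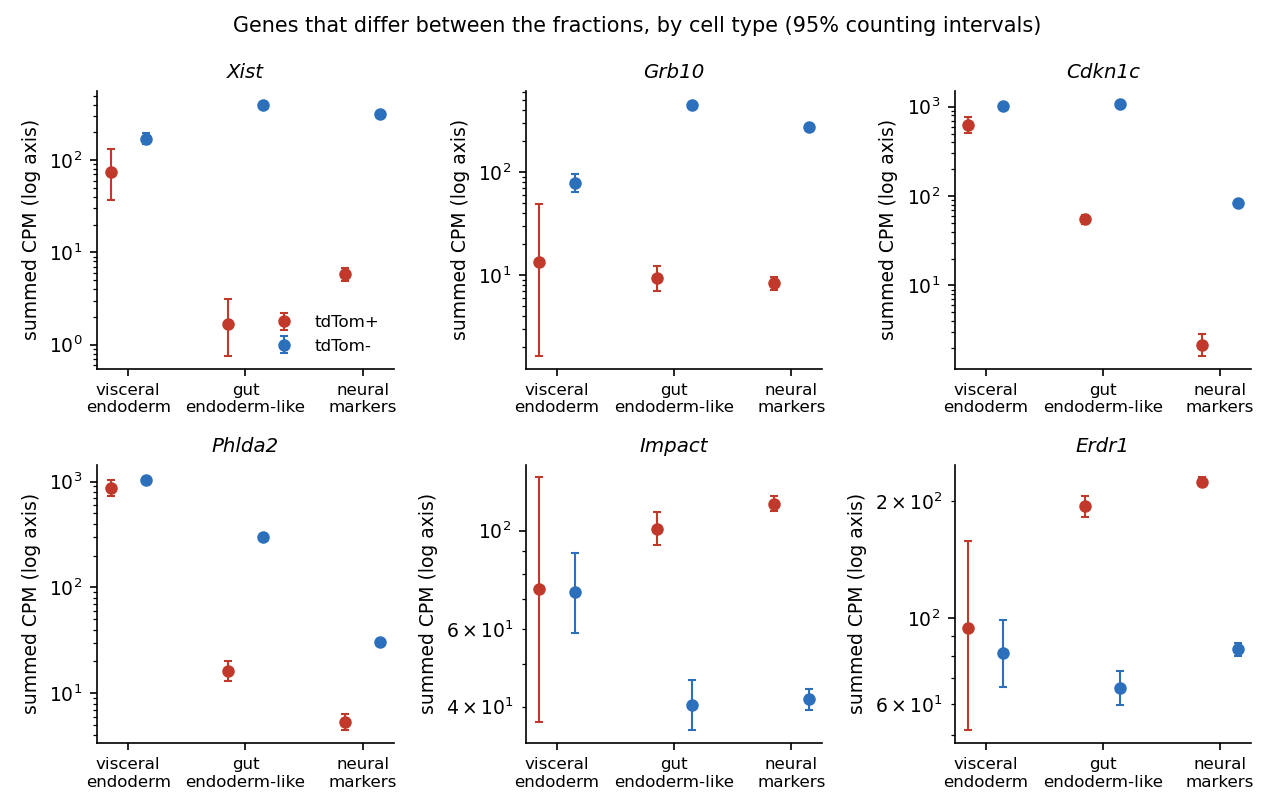
Summed CPM (y axes, log scale) of 6 genes in VE cells, gut endoderm-like cells and cells with neural markers of the tdTom+ (red) and tdTom- (blue) library, with exact 95% counting intervals. *Cdkn1c* and *Phlda2* differ by over 10-fold between the fractions in gut endoderm-like cells, while in VE cells they are at 632 against 1016 and 868 against 1038 CPM, or 188 and 420 CPM for tdTom+ without the deepest cell. The smaller group of VE cells, with 17 tdTom- cells and 1 tdTom+ cell, has *Cdkn1c* at 2498 CPM against 434 CPM in the larger.

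*Cdkn1c* was at 632 CPM (511 to 774) in the 4 tdTom+ and at 1016 CPM (962 to 1073) in the 57 tdTom- VE cells, whereas in gut endoderm-like cells it had 55.2 and 1069 CPM and in neural cells 2.18 and 84.6 CPM (2.25 and 89.6 CPM without the caudal cluster). Per cell the 4 tdTom+ VE cells had 81, 4, 9 and 0 UMIs of it, and without the deepest cell the level was 188 CPM (log2 ratio to tdTom- of -2.43, -3.34 to -1.65). The tdTom+ cells with these UMIs lay in the larger group of VE cells, which had *Cdkn1c* at 434 CPM. The smaller group, with 17 of the 57 tdTom- cells, had it at 2498 CPM. *Phlda2*, an imprinted gene that limits placental growth, had 868 and 1038 CPM in tdTom+ and tdTom- VE cells, 16.4 and 301 CPM in gut endoderm-like cells, and 5.38 and 30.8 CPM in neural cells, and the 4 cells had 100, 6, 23 and 0 UMIs, which gives 420 CPM without the deepest cell (-1.30, -1.89 to -0.77). For *Grb10*, an imprinted adaptor of growth factor receptors, the counts were 0, 0, 2 and 0, which gives 13.4 CPM (1.63 to 48.6) against 78.2 CPM in tdTom- VE cells, and 9.38 and 449 CPM in gut endoderm-like cells. Without the deepest cell the level was 29.0 CPM and the ratio to tdTom- of -1.43 (-4.50 to 0.46) was not called. The larger group of VE cells, with 3 of the 4 tdTom+ cells, had *Grb10* at 34.2 CPM, and the smaller had it at 176 CPM. *Impact* and *Erdr1*, higher in tdTom+ than in tdTom- neural cells (115 against 41.6 and 224 against 83.2 CPM), had 74.0 against 72.8 and 94.1 against 81.4 CPM in VE cells. For *Rhox5* the levels were 975 CPM (tdTom+) and 894 CPM (tdTom-) in VE cells, against 1.10 and 59.3 CPM in gut endoderm-like cells. The part of free RNA in these values was not tested.

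The cluster of the VE cells also held 11 cells under the threshold, of which 4 were tdTom+. These 4 had rule shares of 1.93%, 1.62%, 1.23% and 1.15% and *Rhox5* counts of 0, 28, 20 and 0 UMIs. *Xist* counts were 0, 5, 24 and 0 UMIs, *Cdkn1c* counts 0, 3, 27 and 0, and *Phlda2* counts 0, 14, 19 and 1. The cells at 1.93% and 1.15% thus had no *Rhox5*, *Xist* or *Cdkn1c* UMI, while the cells at 1.62% and 1.23% had all 3. Of Y-linked genes, the cell at 1.62% also had 1, 2 and 1 UMIs of *Ddx3y*, *Eif2s3y* and *Uty*, beside its 5 of *Xist*. The cell at 1.93% had 1 of *Eif2s3y*, and the cells at 1.23% and 1.15% had none of the 3.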

How the data were processed

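Per the labels and the methods of the study, sorted cells of 6 pooled chimeric embryos were profiled in droplets. The authors aligned reads to mm10 with Cell Ranger (version 3.0.2) and separated cells from empty droplets (emptyDrops). They removed cells by their total count and mitochondrial percentage, identified doublets, and split reads into spliced and unspliced UMIs with velocyto. Deposited were these raw counts and, as cell metadata, the mitochondrial percent that the authors computed. The study reports fewer cells per fraction, those that passed quality control and were assigned a cell type. Shares of a fraction given here are over all deposited cells, including those called doublets by Scrublet. Summed UMIs were compared as ratios of counts per 1000000 (CPM), with exact conditional 95% intervals and a floor of 3 counts over the group where a side was at 0, among genes with at least 20 UMIs. The calculation was tested on simulated data with counting error only, the error that the intervals assume. Spread between cells was not part of the simulation. Each fraction is 1 library, so no p-value was computed.

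Cells were clustered without the 4 rule and 3 globin genes (1853 variable genes, 50 components, 20 neighbours, Leiden resolution 1.5), and the 61 VE cells again with 2274 genes, 10 components, 8 neighbours and resolution 0.5. Gut endoderm-like cells were 2 clusters with at least 5 of 8 gut markers and neither *T* nor *Noto* among their leading genes, and neural cells 5 clusters with at least 4 of 10 neural markers. Doublets (Scrublet) were left out of both. Genes outside the lists were named by the highest and lowest ratios among those with at least 100 summed UMIs (20 between the fractions) whose interval left out 0, passing over mitochondrial and predicted genes. Python 3.11.15, scanpy 1.11.5, leidenalg 0.10.2 and scipy 1.17.1 were used. The VE cells and all lists were chosen with earlier results of these data known. The cluster rules, the genes read between fractions, the groups of VE cells, the motifs and some alternatives were set after the data were seen. A few genes of the lists and rankings are not reported here by name.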

Additional observations from a re-analysis of the deposited data

Results flagged for a closer look

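Of 143 listed or named genes with at least 20 UMIs in each library and at least 1 in the VE cells of each, 15 had log2 ratios of VE cells to the other cells of their library with opposite signs in the 2 fractions, and for 5 of them both 95% intervals left out 0, although the tdTom- ratios of *Xist*, *Peg3* and *Vps37a* were under the 2-fold call. These differences were not tested, and there is 1 library per fraction. The named genes include those with the highest and lowest ratios between tdTom+ and tdTom- VE cells, a choice that favours such differences. *Fabp3*, *Hist2h2ac* and *Vps37a* were named that way. *Xist* had a log2 ratio of 4.51 in the tdTom+ library (74.0 against 3.25 CPM, all 11 UMIs in 1 cell) and -0.71 in the tdTom- library (171 against 279 CPM). *Peg3*, an imprinted gene, had -1.34 (397 against 1005 CPM) and 0.20 (500 against 435 CPM). *Fabp3*, a fatty acid-binding protein, had 4.39 (94.1 against 4.49 CPM, 14 UMIs in 1 cell) and -1.43 (6.26 against 16.9 CPM). The histone gene *Hist2h2ac* had 1.28 (114 against 46.9 CPM) and -2.22 (14.9 against 69.1 CPM). *Vps37a*, a gene of endosomal sorting, had -2.54 (6.72 against 39.1 CPM, 1 UMI) and 0.71 (55.5 against 33.9 CPM).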

How the results depend on the processing

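No paired analysis was possible because each fraction has 1 library. Under the alternatives, 70 values of counts and shares stayed within 1.5 times the reported count or within the interval of the share, and 15 did not. At a threshold of 1% the tdTom+ share was 0.134%, and at 5% the shares were 0 (tdTom+) and 0.0540% (tdTom-). With the 5 cells at 5%, 984 genes were raised and 413 lowered against the other cells, 686 and 518 against gut endoderm-like cells, and 425 and 40 in unspliced UMIs, with fewer cells and UMIs entering. The comparison of the fractions at 5% was not run, as it left 0 tdTom+ cells. Between the fractions, 149 genes were raised with no minimum of UMIs, and the mean over cells of each cell's CPM gave 354 raised and 1396 lowered. The same mean gave 2116 raised and 2183 lowered in unspliced UMIs. Calls by this mean needed only the 2-fold difference, as it has no interval. The part that this has in the higher counts was not tested. Without the deepest tdTom+ cell, an alternative chosen after seeing the data, 76 genes were lowered. The log2 ratio between the fractions turned for *Hba-x* to 0.01 (mean over cells) and for *Apob* to 0.09 (without the deepest tdTom+ cell). In the mean for *Hba-x* the tdTom+ cell with 860 spliced UMIs, which held 2 UMIs of it, counts as much as the others. Single genes kept their sign in 176 of 176 values against the other cells, 221 of 221 against gut endoderm-like cells and 126 of 128 between the fractions. These genes were the rule genes, *Apob* and those named for the highest and lowest ratios. In the first 2 comparisons a change of sign was therefore unlikely from the start.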
